A study of Mus musculus with 287 samples.

Results

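The 41 genes described here are transcribed mainly while a cell copies its DNA or divides, and they were chosen by name: 16 act in S phase and 25 in G2 phase or mitosis. All 41 of 41 were found by symbol among the 55359 gene identifiers of the exon count table. They were followed in single cells of mouse cerebral organoids, small self-organizing brain-like tissues grown from embryonic stem cells. The organoids carried MADM-11GT/TG with Emx1-CreER+/-, a genotype shared by every cell. MADM (mosaic analysis with double markers) lets a recombination event between homologous chromosomes give the descendants of a dividing cell a green or a red fluorescent protein, so that related cells can be picked as a clone. CreER under Emx1, a gene of dorsal forebrain progenitors, was activated with 60 nM 4-hydroxytamoxifen on day 13, and fluorescent cells were aspirated with a pipette on day 20 and sequenced with Smart-seq3. No untreated cells and no other genotype were compared.

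Cells with a clone label and at least 1000 genes counted were used, from 68 clones, which left out 37 labelled cells. Of the cells used, plates 1, 2 and 3 held 49, 42 and 40 of clone type SN and 41, 38 and 37 of clone type N, labels whose meaning the sources used here do not state. Red cells numbered 94, and the others were green. The cells used held between 6171 and 13040432 exon counts (median 1517431) and between 1018 and 16851 counted genes (median 5316). No label names the organoid or culture of a clone, so clones were the unit of every test, and a p-value here reflects how much clones vary and nothing beyond that. The labels call the picked cells neurons, and Stmn2, a tubulin-binding protein of young neurons, was counted in 96.8% of the cells used. Markers of radial glia, the progenitors of the cortex, were also frequent: Fabp7 was counted in 95.5% of cells, Vim in 93.1% and Sox2 in 66.4%.

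A dividing cell first loads the Mcm2-7 helicase onto replication origins with the help of Cdc6, then fires these origins under cyclin E, and copies its DNA with the sliding clamp Pcna and with nucleotides made by Rrm1, Rrm2 and Tyms. E2F factors turn on many of these S genes. Later, cyclin A, cyclin B and Cdk1 drive entry into mitosis, condensins and topoisomerase II shape the chromosomes, kinesins and the centromere proteins build the spindle, and the anaphase-promoting complex with Cdc20 and Ube2c ends the process. Genes of this later wave are commonly switched on through promoter elements named CHR and CCAAT box. In the developing cortex radial glia and intermediate progenitors cycle, and neurons have left the cell cycle.

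The promoters of the members differed by phase in the short sequence elements they held. RefSeq promoter windows (mouse build GRCm38.p6, 250 bases before to 50 after the gene start) were found by symbol for 34 of the 41 members. A CHR (TTTGAA or TTCGAA) together with a CCAAT box (CCAAT), each searched on both strands, was present in 17 of 21 windows of G2/M members (80.95%), in 2 of 13 of S members (15.4%) and in 7.70% of all 27025 windows. An E2F element (TTTGGCGC, TTTCCCGC, TTTCGCGC or TTTGCCGC, both strands) was present in 6 of 13 S windows (46.2%), in 1 of 21 G2/M windows (4.76%) and in 2.32% of all windows. Counted on its own account, CHR was present in 17 of 21 G2/M windows, 2 of 13 S windows and 19.4% of all windows. The CCAAT box was frequent in both phases, in 19 of 21 G2/M windows (90.5%) and 9 of 13 S windows (69.2%), beside 37.9% of all windows. Matches of different kinds overlapped in 2 members. A match is a run of letters and was not tested as a binding site.

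Windows of 5 G2/M members are shown because each holds CHR and CCAAT letters close to the start. They are the 160 bases before the start, 5′ to 3′ on the strand of the gene, with CHR and CCAAT matches in capitals on either strand. Cdk1, the kinase that drives mitosis, lies on the minus strand (chr10:69352913-69353072), as do Top2a, topoisomerase II alpha (chr11:99024190-99024349), and Cdc20, an activator of the anaphase-promoting complex (chr4:118437344-118437503). Ube2c, the ubiquitin-conjugating enzyme of that complex (chr2:164769769-164769928), and Kif11, a spindle kinesin (chr19:37376222-37376381), lie on the plus strand. The Cdk1 window also holds an E2F match, left in lower case.
Cdk1: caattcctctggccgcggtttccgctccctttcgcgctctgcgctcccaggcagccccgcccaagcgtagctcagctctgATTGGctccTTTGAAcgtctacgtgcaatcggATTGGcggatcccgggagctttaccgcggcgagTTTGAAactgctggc
Top2a: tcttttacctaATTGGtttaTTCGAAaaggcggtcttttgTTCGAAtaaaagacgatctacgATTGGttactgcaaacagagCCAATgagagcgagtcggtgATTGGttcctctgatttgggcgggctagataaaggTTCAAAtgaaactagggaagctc
Cdc20: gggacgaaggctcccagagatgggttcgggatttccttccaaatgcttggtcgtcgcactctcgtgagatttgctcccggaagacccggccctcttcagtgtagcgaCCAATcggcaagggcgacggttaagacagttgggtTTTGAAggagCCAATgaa
Ube2c: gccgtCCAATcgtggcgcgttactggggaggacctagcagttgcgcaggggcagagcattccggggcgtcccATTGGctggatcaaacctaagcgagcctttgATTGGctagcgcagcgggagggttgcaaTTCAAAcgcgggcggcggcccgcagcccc
Kif11: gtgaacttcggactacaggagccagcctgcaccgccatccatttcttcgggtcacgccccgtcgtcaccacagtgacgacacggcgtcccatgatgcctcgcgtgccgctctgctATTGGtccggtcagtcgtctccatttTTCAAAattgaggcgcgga

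Windows of 3 S members with an E2F match are shown for contrast, with E2F matches in capitals. Mcm5 (chr8:75109349-75109508, plus strand) and Mcm6 (chr1:128359706-128359865, minus strand) are helicase subunits, and Hells (chr19:38930830-38930989, plus strand) is a chromatin remodeller of the SNF2 family.
Mcm5: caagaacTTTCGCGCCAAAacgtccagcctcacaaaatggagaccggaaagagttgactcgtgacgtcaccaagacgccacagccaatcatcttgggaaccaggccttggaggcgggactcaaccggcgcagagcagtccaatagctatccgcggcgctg
Mcm6: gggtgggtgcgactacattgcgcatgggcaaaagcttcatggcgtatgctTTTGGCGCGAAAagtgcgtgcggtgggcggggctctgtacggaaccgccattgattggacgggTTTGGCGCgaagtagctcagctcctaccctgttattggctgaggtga
Hells: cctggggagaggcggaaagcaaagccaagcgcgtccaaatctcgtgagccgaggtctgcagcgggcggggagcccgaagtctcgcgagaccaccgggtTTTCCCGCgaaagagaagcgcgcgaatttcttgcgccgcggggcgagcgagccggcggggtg

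**Figure D1:**
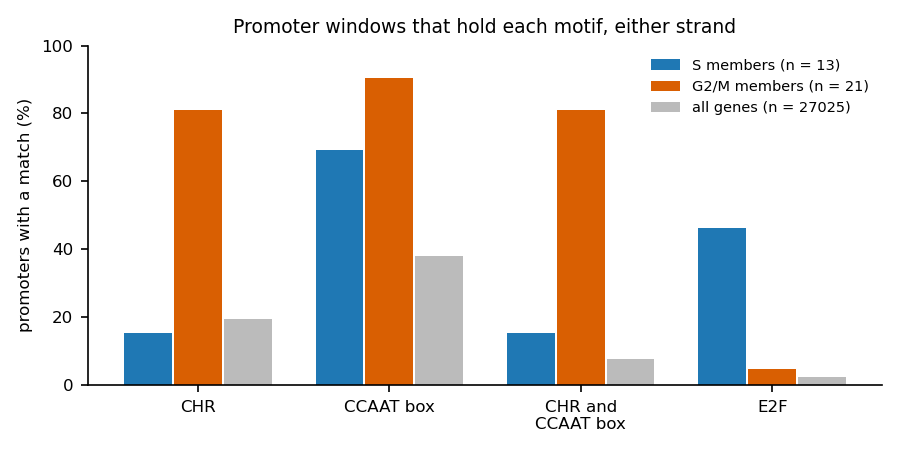
Share of promoter windows (vertical axis, percent) that hold each motif (horizontal axis), for S members (blue, 13 windows), G2/M members (orange, 21 windows) and all genes (grey, 27025 windows). CHR with a CCAAT box stands at 80.95% of G2/M members against 7.70% of all genes, and E2F at 46.2% of S members against 2.32%.

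Counts of cell cycle genes were present in most cells. Each member was counted in some cells, from 12.6% of the cells used for Ccne1 to 80.6% for Hmgb2. To compare cells at equal depth, the cells with at least 100000 exon counts (84, 79 and 62 on plates 1, 2 and 3) were thinned to 100000 counts each, which left out 10 SN and 12 N cells. After thinning a member was counted in between 7.56% of cells (Cdc6, 95% Wilson interval 4.77% to 11.8%) and 78.2% (Hmgb2, 72.4% to 83.1%). These intervals cover counting error only. As a background, 10 genes of tissues that a brain organoid does not hold were counted in 0 cells (Prm1, of sperm) to 37 cells (Tnnt2, of heart muscle, 15.0% of the cells used). The shares of Ccne1 and Cdc6, counted in 31 and 33 cells, lie within that background range and are not read as expression.

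Among the S members, Pcna was counted in 60.0% of the thinned cells, the helicase subunit Mcm7 in 49.3% and Mcm4 in 37.8%, and the other Mcm subunits in 22.2% (Mcm3) to 34.7% (Mcm6). Gins2, of the same helicase, was counted in 19.1%, and the loading factor Cdc6 had the lowest share, given above. The ribonucleotide reductase subunit Rrm1 was counted in 40.9% of cells, its partner Rrm2 in 27.1% and the thymidylate synthase Tyms in 21.8%. Hells was counted in 31.1% and Uhrf1, which carries DNA methylation through replication, in 25.8%. The cyclins Ccne1 and Ccne2, which trigger S phase, were counted in 8.00% and 11.6%. These are shares of cells with a count and not levels, since an exon count depends on transcript length.

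Among the G2/M members the chromatin protein Hmgb2, the condensin subunit Smc4 (61.8%) and Top2a (57.3%) were counted in most thinned cells. Ube2c followed at 46.2%, the condensin subunit Smc2 at 44.0% and the proliferation marker Mki67 at 40.9%, while Cdc20 was counted in 16.9%. The mitotic cyclins and their kinase were less frequent, at 28.4% for Ccna2, 26.7% for Cdk1, 20.4% for Ccnb1 and 16.9% for Ccnb2. The mitotic kinases and checkpoint genes ranged from 12.0% for Bub1 to 29.8% for Cdca8, and the spindle and kinetochore genes from 19.6% for Kif11 to 40.9% for Cenpf. Intron counts, deposited in a separate table, did not follow this order: Plk1, a mitotic kinase, had intron counts in 79.8% of the cells used and exon counts in 25.51%, and Gins2 had intron counts in 0 cells and exon counts in 21.9%.

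A typical cell held counts of few members, and a small group held nearly all of them. After thinning, the number of members counted per cell had a median of 10 of 41 and ranged from 1 to 37. No more than 5 members were counted in 64 of the thinned cells, and 30 or more in 15 (6.67%). These 15 cells came from 13 clones, 10 of them were SN and 5 N, and 7, 7 and 1 came from plates 1, 2 and 3. Mki67, Top2a, Cdk1, Birc5, Nusap1, Ube2c, Hmgb2, Pcna, Mcm4, Mcm6, Mcm7, Cdca8 and Smc4 were counted in all 15, and Ccne2 in 3. The cells were picked by their number of members, so high shares of members in them follow from that choice. Birc5 encodes survivin, part of the complex that positions Aurora B on mitotic chromosomes.

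The 15 cells held neuronal and progenitor markers side by side. Stmn2 lay in them between 1092 and 5821 CPM (counts scaled to 1000000 exon counts per cell), with a median of 2462, against 2517 over all cells used. The neuronal genes Dcx, Tubb3, Neurod6 and Neurod2 were each counted in 15 of 15, with medians below those of all cells used. Dcx had a median of 465 CPM against 592, Tubb3 729 against 772, Neurod6 169.4 against 235.8 and Neurod2 74.3 against 87.1. Sox2 had a median of 107.4 CPM in the 15 cells and 23.9 over all cells, Vim 777 against 412, Pax6 30.1 against 0.603, and Fabp7 1605 against 1412. The median exon count of the 15 cells was 6743899, above the 1517431 of all cells, and the part of depth in these levels was not tested. The other 24 thinned cells of the same 13 clones held 3 to 28 members with a median of 11, beside a median of 10 over all thinned cells. They are what is left of these clones once the 15 cells are taken out, so their highest value is limited by that choice. Of the 13 clones, 2 held 2 or more of the 15 cells.

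The number of members counted followed the number of genes counted. Over the thinned cells Spearman's rho between both was 0.78, a description over cells that share clones and plates. In the lower, middle and upper tertile of genes counted the median number of members was 5, 10 and 20.

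**Figure D2:**
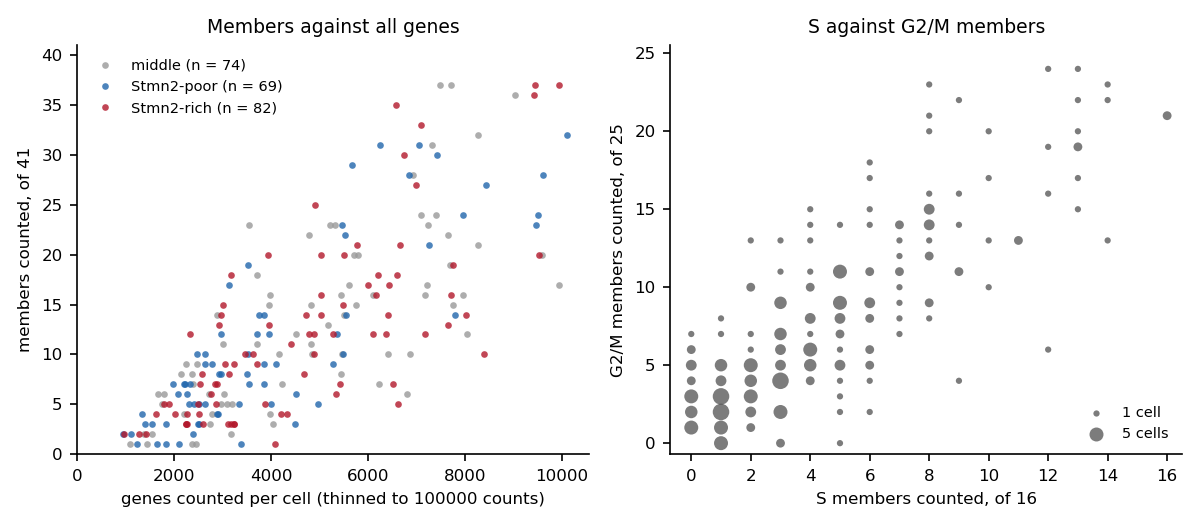
Left, members counted per cell (of 41) against all genes counted per cell, for cells thinned to 100000 counts and coloured by the tertile of Stmn2. Right, G2/M members (of 25) against S members (of 16) counted in the same cells, with the dot area showing the number of cells. Members rise with genes counted in every colour, and S and G2/M members rise together.

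S and G2/M members were counted in the same cells and did not split the cells into separate phases. S members without G2/M members were counted in 8 thinned cells, G2/M members without S members in 22, neither in 0, and both kinds in all others. The numbers of S and of G2/M members were related with rho = 0.78, and with 0.50 once ranks were adjusted for genes counted per cell (thinned cells, description only). Only 1 cell held at least 8 G2/M members with at most 1 S member, 3 cells held at least 5 S members with at most 2 G2/M members, and 36 cells held at least 8 S and 12 G2/M members. No phase was therefore assigned to a cell.

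Pairs of members were counted together more than pairs of genes at large. Over the thinned cells and the 39 members counted in at least 10% of them, the median rho of 741 pairs was 0.23, against 0.13 for all 10902 genes counted as often. Adjusted for genes per cell the medians were 0.13 and 0.00. Pairs within G2/M had a median of 0.15 after adjustment, and pairs within S and pairs across the phases each had 0.11. The highest pair was Top2a with Birc5 at 0.48, and 0.40 after adjustment. Mcm5 with Uhrf1 led the pairs within S at 0.43, and 0.36 after adjustment, and Birc5 with Mcm6 stood highest across the phases at 0.45.

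Counts left in neuron-like cells were looked at through Stmn2. Cells were split by the tertiles of Stmn2 at 1719 and 3709 CPM into 83 Stmn2-rich, 81 middle and 83 Stmn2-poor cells. This class is a range of the level of a single gene and not a cell type: 31 cells lie within 10% of the upper limit and 22 within 10% of the lower limit.

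Counts of cell cycle genes were frequent in Stmn2-rich as well as in Stmn2-poor cells. Mki67 or Top2a was counted in 56 of 82 thinned Stmn2-rich cells (68.3%, interval 57.6% to 77.4%) and in 46 of 69 Stmn2-poor cells (66.7%, 54.9% to 76.6%). Cdk1, Ccnb1 or Ccnb2 was counted in 41.5% (31.4% to 52.3%) and 37.7% (27.2% to 49.5%), and Pcna or an Mcm2-7 subunit in 89.02% (80.4% to 94.1%) and 75.4% (64.0% to 84.01%). The intervals overlap in each case. They treat cells of shared clones and plates as independent, so neither a difference nor its absence can be read from this overlap. The number of members per cell had medians of 10.5 in Stmn2-rich, 11.5 in middle and 8 in Stmn2-poor cells, and 30 or more members were counted in 6, 5 and 4 cells. Median depth before thinning was 2515099, 1533442 and 902636, and thinned genes per cell had medians of 4375, 4823.5 and 3385 in the same order.

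The order of the Stmn2 classes was not the same in each tertile of genes counted. In the lower tertile the median was 5 members in each class. In the middle tertile it was 10 in Stmn2-rich, 11 in middle and 9 in Stmn2-poor cells, the order seen over all thinned cells. In the upper tertile it was 17.5 in 28 Stmn2-rich, 18 in 30 middle and 24 in 17 Stmn2-poor cells. Within plate 1 the medians of Stmn2-rich and Stmn2-poor cells were 12 and 7.5, within plate 2 they were 10 and 8, and within plate 3 they were 5 and 8.5, so the order on plate 3 was opposite.

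The summed levels of the classes were closer over all plates than within plates 1 and 2. The S members summed to a median of 266.1 CPM in Stmn2-rich, 339 in middle and 275.5 in Stmn2-poor cells. The G2/M members summed to 856, 874 and 831 CPM. The plates hold the classes in unequal shares, with 43, 30 and 10 Stmn2-rich and 25, 18 and 40 Stmn2-poor cells on plates 1, 2 and 3. The S medians of Stmn2-rich and Stmn2-poor cells were 266.1 and 387 CPM on plate 1, 447 and 304 on plate 2 and 230.1 and 194.1 on plate 3. The G2/M medians were 951 and 984 CPM, 982 and 1422, and 465 and 487 on the same plates. For the S members the order on plate 1 was opposite to that on plates 2 and 3, for the G2/M members the Stmn2-poor median was the higher on each plate, and these differences were not tested. The medians over all plates also depended on the total of a cell. Without mitochondrial genes and a gene without a symbol in that total, the S medians were 372, 431 and 452 CPM in Stmn2-rich, middle and Stmn2-poor cells. The G2/M medians were then 1058, 1184 and 1209 CPM, with Stmn2-poor cells the highest for both sums. Across the cells used Stmn2 had a rho of 0.04 with the S sum and of 0.02 with the G2/M sum. Summed markers of radial glia had a rho of 0.28 with the S sum and of 0.29 with the G2/M sum, and the neuronal list -0.07 and -0.10. Intermediate progenitor markers had 0.13 and 0.20. The number of members in thinned cells was also compared, with ranks adjusted for genes counted. Its rho was then 0.29 with radial glia, -0.24 with neuronal and 0.05 with intermediate progenitor markers, and -0.09 with Stmn2. These are descriptions over cells of shared clones and libraries.

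**Figure D3:**
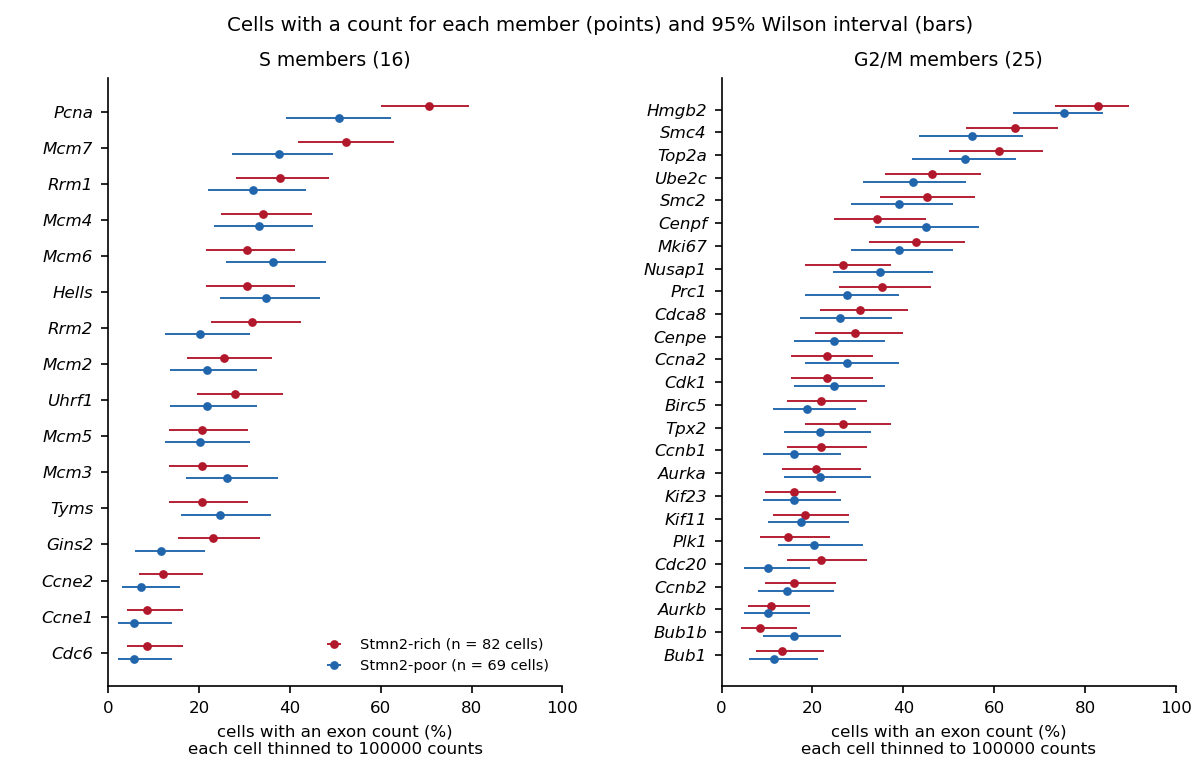
Share of cells with an exon count for each member (horizontal axis, percent) in 82 Stmn2-rich (red) and 69 Stmn2-poor cells (blue), each thinned to 100000 counts, with 95% Wilson intervals as bars. Pcna stands at 70.7% against 50.7%, Mki67 at 42.7% against 39.1%, and most intervals overlap. This overlap is not a test of a difference.

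Within clones, no member passed the test between Stmn2-rich and Stmn2-poor cells. The counts of each class were summed in the 26 clones that held both, and tested with edgeR's quasi-likelihood test with the clone as a block and Benjamini-Hochberg adjustment over 5732 genes other than Stmn2. Of these, 0 (0%) passed an adjusted p of 0.05, and 0 of the 14 members that passed the filter on low counts did. At an unadjusted p under 0.05, 758 genes (13.2%) were higher and 2 (0.0349%) lower in Stmn2-rich sums, with 0 of 14 members among them. The whole scale was shifted here. A log2 difference above 0 was seen in 13 of 14 members and in 91% of all genes. The median over all genes stood at 1.48 and over the 14 members at 1.53, so a member near 1.48 was at the middle of all genes.

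The helicase subunit Mcm7 had the smallest p of the S members. Its level lay between 0 and 235.3 normalized CPM in the summed Stmn2-rich cells (median 25.2), and between 0 and 114.7 in Stmn2-poor cells (median 2.47). The ranges overlap, and Mcm7 was higher in the Stmn2-rich sum in 17 of 26 clones and lower in 6. Its log2 difference was 2.69 ± 1.53 (SE, adjusted p = 0.406 by edgeR). Pcna stood at a median of 91.2 CPM (0 to 332) against 36.5 (0 to 458), a log2 difference of 1.43 ± 1.36 (edgeR, adjusted p = 0.591).

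Prc1, which bundles microtubules at the spindle midzone, ranged from 0 to 516 CPM in Stmn2-rich sums and from 0 to 458 in Stmn2-poor sums, with medians of 7.50 and 0. Its log2 difference was 2.78 ± 1.71 (edgeR, adjusted p = 0.431). Nusap1, a spindle microtubule protein, reached 270 and 218.04 CPM from 0 in both, with medians of 17.0 and 0 and a log2 difference of 3.08 ± 2.06 (edgeR, adjusted p = 0.467). With DESeq2 in place of edgeR, 1896 of 5732 genes and 2 of 14 members passed. These members were Prc1 and Nusap1, both higher in Stmn2-rich sums. Passing was thus no more frequent among the members than among all genes. With classes set by 5 neuronal genes in place of Stmn2, the edgeR log2 difference of Nusap1 was -1.22, opposite in sign. On plate 3 the median of all genes was -1.13, opposite to the 2.76 on plate 1, so the shift was not shared by the plates.

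No member passed the test between clone types. SN clones were set against N clones over the 62 clones with at least 2 kept cells, 42 SN and 20 N, with plate in the model. By edgeR 0 of 11914 genes (0%) and 0 of 41 members passed an adjusted p of 0.05. At an unadjusted p under 0.05 2.06% of genes passed, 0.327% higher and 1.74% lower in SN, and 0 members. With DESeq2 2 genes passed, neither of them a member. A log2 difference above 0 was seen in 22 of 41 members and in 40.2% of all genes. The median was 0.03 over the members and -0.11 over all genes. These moved to 0.10 and 0.00 with edgeR's relative log expression (RLE) scaling in place of its TMM scaling.

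The 7 S members and 15 G2/M members above 0 were not called, and each value was below its standard error. Of the members below 0, Ccne2 lay between 0 and 42.4 normalized CPM in SN clones (median 0) and between 0 and 63.1 in N clones (median 2.02). Its log2 difference was -1.43 ± 1.17 (SE, edgeR, adjusted p = 1), positive on plate 1 alone at 0.99. Rrm1 lay between 0 and 158.5 CPM in SN clones (median 48.2) and between 0 and 188.4 in N clones (median 29.8) (log2 difference 0.49 ± 0.58). Both groups overlap over nearly their whole range for each gene.

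Among the G2/M members, Hmgb2 had a median of 183.5 CPM in SN clones (0 to 889) and of 120.9 in N clones (0 to 623), a log2 difference of 0.24 ± 0.34 (edgeR, adjusted p = 1). Smc2 had medians of 45.4 (0 to 644) and 79.5 (1.19 to 285.1), a log2 difference of 0.45 ± 0.65 that was -0.37 on plate 1 alone. Its fitted sign and its medians point opposite ways.

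The summed levels of the clones showed the same overlap. The mean S sum of a clone had a median of 371 CPM in SN clones (63.4 to 1147) and of 289 in N clones (155.9 to 931). Its medians in SN and N clones were 484 and 297 on plate 1 and 497 and 333 on plate 2, but 202.8 and 248.03 on plate 3, where the order was opposite. The G2/M sum had medians of 890 (46.8 to 3167) and 878 (226.02 to 2263). Clones on plate 3 were low in both types, with G2/M medians of 609 in SN and 603 in N clones. On plates 1 and 2 these medians were 918 and 1268 in SN clones and 978 and 1126 in N clones. A cell with at least 21 of 41 members counted was present in 17 of 42 SN clones (40.5%) and in 9 of 20 N clones (45.0%). A clone with more cells has more chances to hold such a cell, and the largest clones were N. These shares therefore do not compare the clone types per cell. An SN clone without a thinned cell is also among the 42. In clones of size 4 to 6 the order was opposite, with 9 of 19 SN clones (47.4%) and 4 of 10 N clones (40%). None of these shares was tested. Clone size was not in the model for clone type. Only SN clones had a size of 2 to 3, and only N clones one of 7 and more. At size 4 to 6, 19 SN clones had a G2/M median of 1254.6 CPM (46.8 to 2524). The 10 N clones of that size had 662.3 CPM (334.6 to 2263). Their S medians were 375.6 CPM in SN and 269.24 in N clones. The ranges overlap for both sums, and these differences at matched size were not tested. They are also not balanced by plate: most of these N clones, but a minority of the SN clones, were on plate 3. The N clones of this size on plate 1 had G2/M sums of 2263 and 978 CPM, and those on plate 2 had 2145 and 388. Size-matched medians and shares of clones therefore cannot tell clone type from plate.

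**Figure D4:**
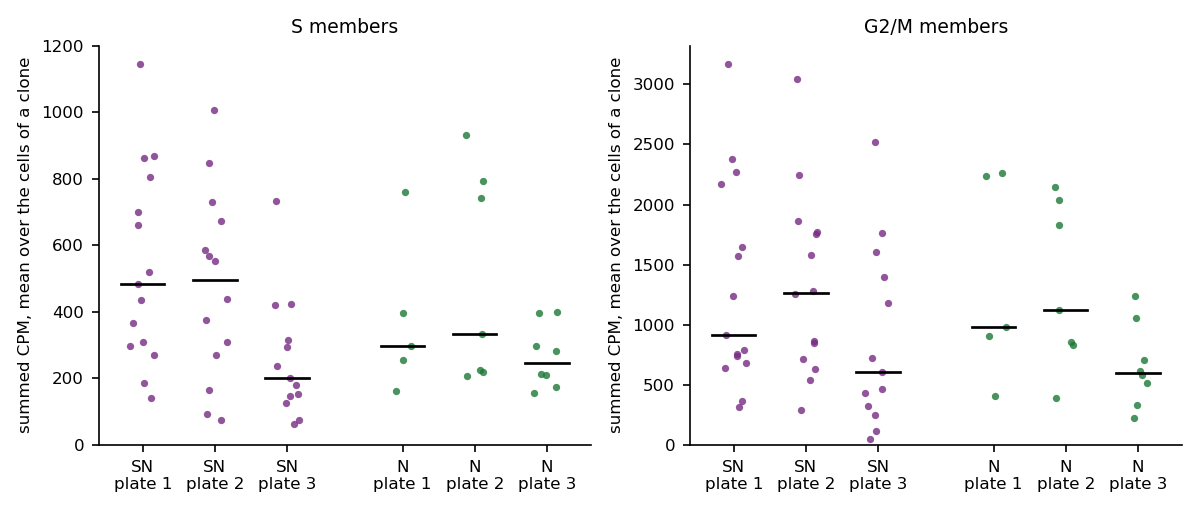
Summed CPM of the S members (left) and the G2/M members (right), averaged over the cells of each clone, by clone type and plate, with 1 point per clone and bars at the medians. SN (purple) and N (green) clones overlap on each plate, and the medians of plate 3 are the lowest within each type.

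Clone size, the labelled number of cells, was tested in the same 62 clones as a slope per doubling, with plate and clone type in the model. All clones of size 2 to 3 were SN and all of size 7 and more were N. Medians of these size groups, given below, therefore cannot tell size from clone type. By edgeR 0 of 11914 genes (0%) and 0 of 41 members passed. At an unadjusted p under 0.05 there were 307 genes (2.58%), with 1.64% rising and 0.94% falling with size, and 0 members. The slope was above 0 in 26 of 41 members and in 55.4% of all genes, with medians of 0.22 and 0.07. It was above 0 in 19 of 25 G2/M members and in 7 of 16 S members. With DESeq2 7 genes passed, and with filterByExpr given the design 1.37% of 17727 genes did, with 0 members in each case.

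The condensin subunit Smc4 had the smallest p. It had a median of 188.2 normalized CPM in the 10 clones of size 7 and more (52.6 to 488), all N. In the 23 clones of size 2 to 3, all SN, it had a median of 70.7 (0 to 467). Its slope was 0.72 ± 0.42 log2 per doubling (SE, edgeR, adjusted p = 1.00). Hmgb2 had medians of 170 (68.2 to 623) and 103.6 (0 to 520) and a slope of 0.47 ± 0.32.

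Of the S members, Ccne1 had medians of 0.0398 CPM (0 to 20.9) in large and 0 (0 to 131.4) in small clones. Its slope was -2.01 ± 1.18. The share of cells with a Ccne1 count lay within the background range given above, so this slope is not read as a change in expression. Pcna had medians of 72.3 (20.7 to 118.9) and 49.9 (3.84 to 200), with a slope of 0.42 ± 0.34. The ranges of large and small clones overlap for each of the 4 genes. The summed S level had medians of 296, 314 and 315 CPM in clones of size 2 to 3, 4 to 6 and 7 and more. The G2/M sum had medians of 720, 978 and 1015 CPM with overlapping ranges, the lowest and highest clone being 118 and 3167, 46.8 and 2524, and 226.02 and 2234. Clone type differs between these size groups, so the medians are not a reading of size alone.

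Green and red cells of a clone are the progeny of a single marked division, so they were compared within the 45 clones that held both, with the clone as a block. By edgeR 0 of 7437 genes (0%) and 0 of the 23 members that passed the filter did so at an adjusted p of 0.05. At an unadjusted p under 0.05 1.64% of genes passed, 96 (1.29%) higher and 26 (0.35%) lower in green cells, and 1 member, Mcm3, was among the lower. A log2 difference above 0 was seen in 12 of the 23 members and in 62% of all genes. The medians were 0.10 and 0.18, and with edgeR's RLE scaling -0.10 and 0.08, so the sign of the members' median depends on the scaling.

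The helicase subunit Mcm3 lay between 0 and 174.7 normalized CPM in green sums (median 0) and between 0 and 324 in red sums (median 4.26). It was lower in green in 22 clones, higher in 12 and equal in 11, and its log2 difference was -3.30 ± 1.44 (SE, edgeR, adjusted p = 1.00). Hells had medians of 3.56 and 0 and a log2 difference of 1.09 ± 1.07, and was higher in green in 23 clones and lower in 13. It was -0.66 in N clones alone.

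Top2a had a median of 45.0 CPM in green sums (0 to 785) and of 97.01 in red sums (0 to 1221). It was lower in green in 28 of 45 clones, with a log2 difference of -1.01 ± 0.79 (SE, edgeR, adjusted p = 1.00), and 0.42 on plate 3 alone. Cdca8, borealin of the Aurora B complex, had medians of 12.6 (0 to 278.8) and 0.378 (0 to 367) and a log2 difference of 1.72 ± 1.41, which was -0.12 without the clone as a block and -2.48 in N clones alone. The S sum was higher in the green cells in 21 of 45 clones and the G2/M sum in 22 of 45. Their medians were 278.7 and 812 CPM in green and 317 and 1000 CPM in red cells.

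**Figure D5:**
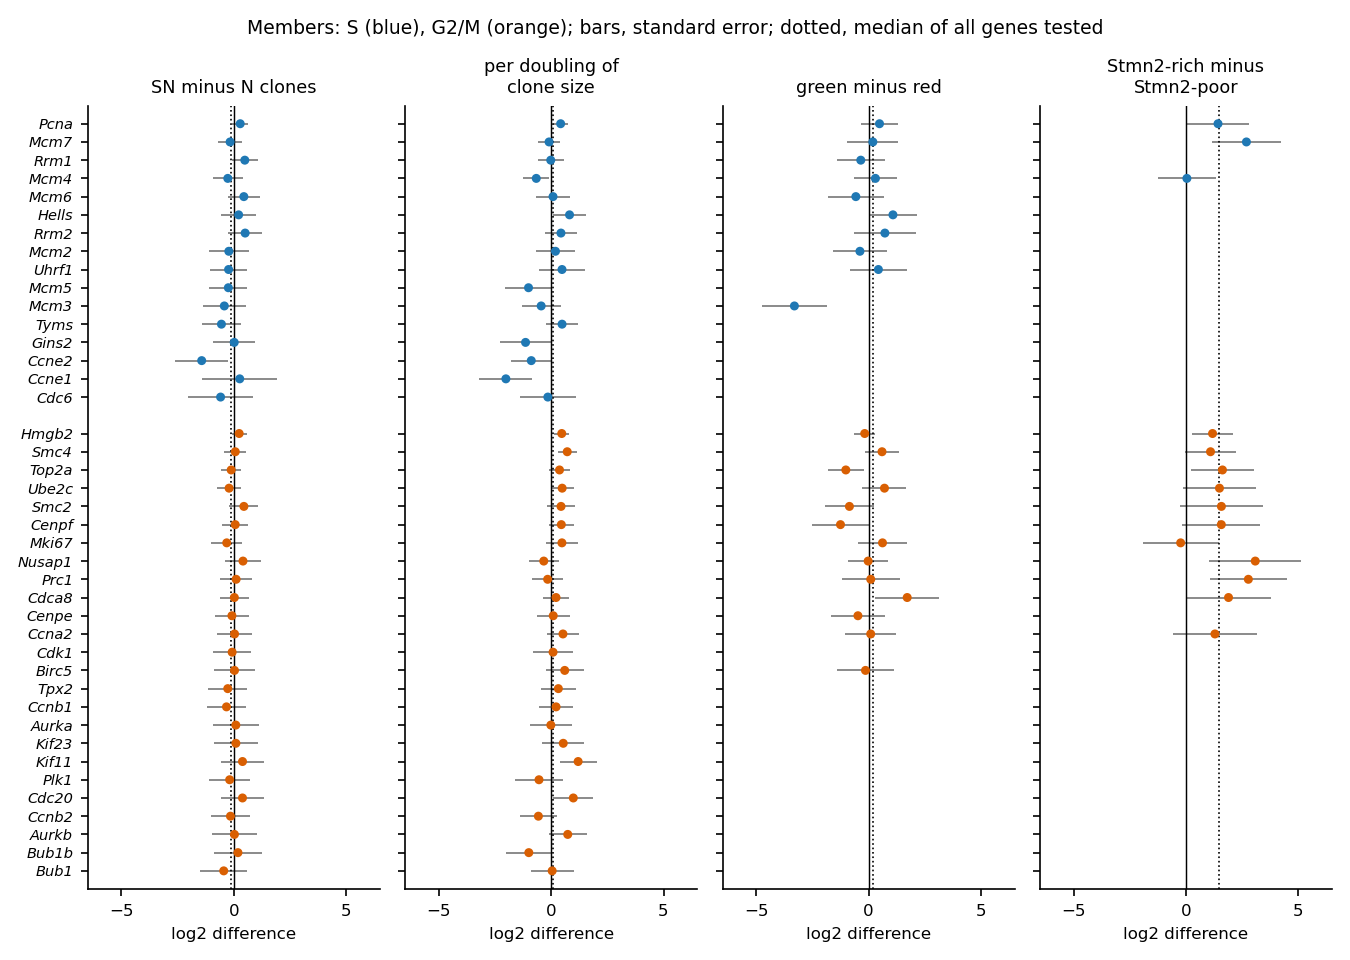
Log2 difference of each member (points; S in blue, G2/M in orange) with its standard error (bars) for clone type, clone size, colour and Stmn2 class, by edgeR. The dotted line marks the median of all genes tested. Members absent from a panel did not pass its filter on low counts, and 0 members passed an adjusted p of 0.05 in any panel.

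No further gene of the cycle passed the test in the same fits. Of 118 other cell cycle genes matched (G1 cyclins and kinases, CDK inhibitors and pocket proteins, E2F and MuvB factors, origin and fork proteins, and mitotic proteins), all but 4 were tested for clone type and for size, 57 for colour and 33 for Stmn2 class. In each of the 4 comparisons 0 passed in either direction. Their median log2 value was -0.06 for clone type, 0.23 for size, 0.28 for colour and 0.92 for Stmn2 class, beside -0.11, 0.07, 0.18 and 1.48 for all genes. For clone type, 11 of 39 origin and replication fork genes and 23 of 46 genes of mitosis and cytokinesis were above 0, beside 40.2% of all genes. For size these counts were 25 of 39 and 31 of 46.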

How the data were processed

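Single cells were sequenced with Smart-seq3, and the deposited tables hold raw exon counts and raw intron counts per gene and cell. Reads were aligned with STAR 2.7.9a to GRCm39 and R 4.4.0 was used, per the submitters' processing notes; the counting tool, the annotation and any use of molecular identifiers are not given in the sources used here. Symbols were matched for 52083 of 55359 identifiers. The members and lists were chosen with earlier results of these data known.

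Cells with at least 1000 genes were kept. Exon counts were summed per clone (at least 2 cells), or per clone and colour or Stmn2 class, and tested with edgeR 4.0.16 (TMM, filterByExpr, quasi-likelihood F test, Benjamini-Hochberg). Standard errors are the log2 value divided by the root of F. Plate was a term for clone type and size, and the clone was the block for colour and Stmn2. Clone 45, labelled on plates 2 and 3, was put on plate 3, which holds most of its cells. Deposited counts were divided by the total of a cell for CPM, and thinned without replacement to 100000 for shares of cells. DESeq2 1.42.0 and limma 3.58.1 served as alternatives, with a pseudocount of 1 for limma. Fits were tested on simulated counts. Genes given with a fold change are, per comparison, the members past an adjusted p of 0.05 and the 2 S and 2 G2/M members of smallest p. Promoter windows came from RefSeq (GRCm38.p6), a build other than that of the counts. No gene coordinates of the counts' build were used here. Precision varies with depth, from 6171 to 13040432 exon counts per cell.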

Additional observations from a re-analysis of the deposited data

How the results depend on the processing

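Over all alternatives that were run, no member passed an adjusted p of 0.05 except Prc1 and Nusap1 in the Stmn2 comparison with DESeq2 (2 members). The share of tested genes called, 0% in each comparison, moved as follows. With DESeq2 it was 0.0168% for clone type, 0.0588% for size and 33.1% for Stmn2. With no filter on low counts it was 17.4% for clone type, 9.43% for size and 0.00264% for colour, and with a filter given the design it was 1.37% for size. It was 0.0169% for clone type with cells of at least 2000 genes, and 0.00839% for clone type and 0.262% for Stmn2 with equal weight per cell (limma). It was 0.0134% for colour with edgeR's RLE scaling and 0.00847% for size without clone 16. On single plates it was 5.58% and 0.0223% for Stmn2 on plates 1 and 2, and 0.0152% for colour on plate 3. In N clones alone it was 0.0134% for Stmn2. The cause was not tested. Log2 values of named members that changed sign were, for clone type, Rrm1 -0.0765 and Smc2 -1.18 with equal weight per cell, Ccne2 0.99 and Smc2 -0.37 on plate 1, and Rrm1 -0.20 on plate 2. For size they were Smc4 -0.27 on plate 2 and Hmgb2 -0.0227 in N clones. For colour they were Hells -0.66 and Cdca8 -2.48 in N clones, Top2a 0.42 on plate 3, and Cdca8 -0.12. For Stmn2 they were Mcm7 -0.0144 on plate 3 and Nusap1 -1.22 with classes by 5 neuronal genes. For colour, the fit with no replicate block (clones unpaired) called 0 genes, as did the paired fit, and gave Cdca8 that value of -0.12. Replicate numbers only name cells and pair none. DESeq2 for colour was not run. Thinning to 50000 or 500000 counts, or none, gave medians of 8, 15 and 12 members per cell. In the shorter promoter window CHR with a CCAAT box was in 66.7% of G2/M members and E2F in 30.8% of S members. Depth limits low members: for clone type the standard error on the log2 scale was 1.17 for Ccne2 and 0.34 for Hmgb2. Standard errors also differed by comparison, and that of Top2a was 0.45 for clone type and 1.39 for Stmn2 class.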

Other observations

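Values outside the comparisons concern cells without a group. Of 3 cells with no clone label, all on plate 2, the first had 1689914 exon counts and counts of 3 S and 9 G2/M members, with G2/M members summing to 2417 CPM and Stmn2 at 1664 CPM. The second had 5976683 exon counts and counts of 13 S and 19 G2/M members, which summed to 579 and 1229 CPM, with Stmn2 at 2227 CPM. The third had 2257 exon counts, 130 genes and no member counted.

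The 37 labelled cells under 1000 genes had a median of 7130 exon counts. They held 0 to 5 members with a median of 1, and 16 of them held none.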
